A study of Mus musculus with 6 samples.

Results

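The genes described are the cyclins and cell cycle kinases Ccnd1, Ccnd2, Ccnd3, Ccne1, Ccne2, Ccna2, Ccnb1, Ccnb2, Cdk1 and Cdk2, 10 of the 23420 genes of the count table, taken by their symbols. They were measured by RNA-seq of polyadenylated RNA in mesenchymal stromal cells (MSCs, the adherent stromal cells of the marrow) grown from the bone marrow of young female C57BL/6 mice. The 3 libraries labelled Ctl MSC came from MSCs that carried the empty AP2 retroviral backbone. The 3 libraries labelled MSC-TPr came from MSCs transduced with the same backbone coding for the catalytic subunits of the thymoproteasome (TPr), namely β5t (Psmb11) with β2i (Psmb10) and β1i (Psmb9), separated by self-cleaving peptides. Both groups therefore share retroviral transduction at passage 5 and the GFP marker of the backbone, and all cells were expanded in AMEM with serum. The labels do not say whether the 3 libraries of a group are separate cultures, so the p-values below measure only the spread between these libraries.

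Cyclins are the regulatory subunits of the cyclin-dependent kinases (CDKs), and a kinase of this family phosphorylates its targets only while it is bound to one. D cyclins with CDK4 and CDK6 act in G1, where they phosphorylate the retinoblastoma protein and release E2F factors. E cyclins with CDK2 act at entry into S phase, cyclin A2 acts in S phase and G2 with CDK2 and CDK1, and B cyclins with CDK1 drive mitosis. The E, A and B cyclins are transcribed in waves and destroyed by the proteasome in each cycle, whereas D cyclin RNA follows growth factor signals. Cultured MSCs divide until they become senescent or too dense, and E, A and B cyclin RNA is known to fall when cells leave the cycle.

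Reads on genes numbered 16158756 to 22158887 per library, of which the 10 genes took 0.0832% to 0.199%. A single gene had from 28 reads (Ccnb2 in MSC-TPr 1) to 23746 reads (Ccnd2 in MSC-TPr 3), and 3 reads corresponded to 0.139 to 0.181 CPM (reads scaled to the TMM library size), a limit that covers counting error only. The transduced genes did not mark the labels, since none of them was higher in every MSC-TPr library than in every Ctl MSC library. Psmb10 reached 27.8 CPM in Ctl MSC 1 against at most 17.3 CPM in any MSC-TPr library. Psmb11 was close to absent under both labels, with 1 to 6 reads per library (0.0464 to 0.355 CPM). Every direction below is therefore a direction between library labels. Ctl MSC 1 and MSC-TPr 1 stood apart from the other libraries of their label over the whole transcriptome. The first principal component, with 57.7% of the variance, had Ctl MSC 1 at −40.99 beside MSC-TPr 2 and 3 at −51.91 and −51.04, and MSC-TPr 1 at 40.82 beside Ctl MSC 2 and 3 at 52.36 and 50.77. Along component 2 (28.9% of the variance) the labels separated, with Ctl MSC at −51.06, −21.08 and −20.2 and MSC-TPr at 51.93, 24.42 and 15.98. Fold changes and ratios are given over all 6 libraries and over the 4 others without these 2. That choice was made with their values known, and the p-values over the other 4 libraries take no account of it.

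Of 10 MSC markers, 9 had at least 1 CPM in every library, and Thy1 (CD90), a defining marker of MSCs, was at 0 in 5 libraries and had 0.0604 CPM in Ctl MSC 1. By flow cytometry, a measure of protein, the paper reports that Ctl MSCs were positive for CD90. The summed RNA level of the 10 MSC markers was 1852 to 6577 CPM in Ctl MSC and 1119 to 8879 CPM in MSC-TPr. Of the 7 haematopoietic markers, 6 were under 1 CPM in every library and Emr1 (F4/80) and Cd3e were at 0 in all 6. The exception was Cd68, a lysosomal protein abundant in macrophages, with 1.63, 9.67 and 7.39 CPM across Ctl MSC 1, 2 and 3, against 14.2, 1.66 and 0.789 CPM across MSC-TPr 1, 2 and 3. It was thus high in the 3 libraries in which most cyclins were low, whereas Csf1r, the receptor of a macrophage growth factor, was higher in the other 3 (0.725 CPM for Ctl MSC 1, with 0.769 and 0.835 CPM for MSC-TPr 2 and 3, against at most 0.0552 CPM). The haematopoietic sum was 2.36 to 9.77 CPM in Ctl MSC and 1.76 to 14.2 CPM in MSC-TPr. Of 4 endothelial and 4 epithelial markers, 3 of each list stayed under 1 CPM in every library, with sums of 0.785 to 3.09 and 0.544 to 1.23 CPM in Ctl MSC and 1.62 to 3.32 and 0.941 to 1.07 CPM in MSC-TPr. The part of these levels in the results was not tested.

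Per length of exon, cyclins D1 and D2 were the most abundant of the 10 genes in every library. Ccnd1 (mm10 chromosome 7, 144929931 to 144939925, minus strand), cyclin D1, had 323, 135 and 125 CPM across Ctl MSC 1, 2 and 3, against 142, 369 and 393 CPM across MSC-TPr 1, 2 and 3, and values are listed in this order of libraries from here on. It was high in Ctl MSC 1 and MSC-TPr 2 and 3 and low in the other 3 libraries, so the groups overlapped. Over all 6 libraries the log2 fold change of MSC-TPr over Ctl MSC was 0.64 (SE 0.514, n = 3 per group, edgeR adjusted p = 0.612). Without Ctl MSC 1 and MSC-TPr 1 it was 1.56 (SE 0.119, n = 2 per group, edgeR adjusted p = 0.0004).

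Ccnd2 (chromosome 6, 127125162 to 127152193, minus strand), cyclin D2, was the gene with the most reads of the 10 in all 6 libraries. It had 558, 651 and 618 CPM across Ctl MSC, against 547, 917 and 1101 CPM across MSC-TPr. MSC-TPr 2 and 3 were above all others, whereas Ctl MSC 1 was not raised with them as it was for Ccnd1. The log2 fold change was 0.49 (SE 0.273, edgeR adjusted p = 0.454) over all 6 libraries and 0.67 (SE 0.142, edgeR adjusted p = 0.0117) without the libraries numbered 1. Ccnd3 (chromosome 17, 47505051 to 47599691, plus strand), cyclin D3, had 49.8, 32.4 and 33.2 CPM across Ctl MSC, against 37.6, 38.0 and 43.4 CPM across MSC-TPr. Its highest library was 1.54 times its lowest, the smallest span of the 10 genes. The log2 fold change was 0.05 (95% interval −0.47 to 0.56, edgeR adjusted p = 0.940) and, without the libraries numbered 1, 0.32 (SE 0.125, edgeR adjusted p = 0.0845). Exons of Ccnd1, Ccnd2 and Ccnd3 overlap genes on the opposite strand (LTO1, 9330179D12Rik with Gm43126, and Bysl), and the strand setting of the counting is not given in the sources used here.

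**Figure D1:**
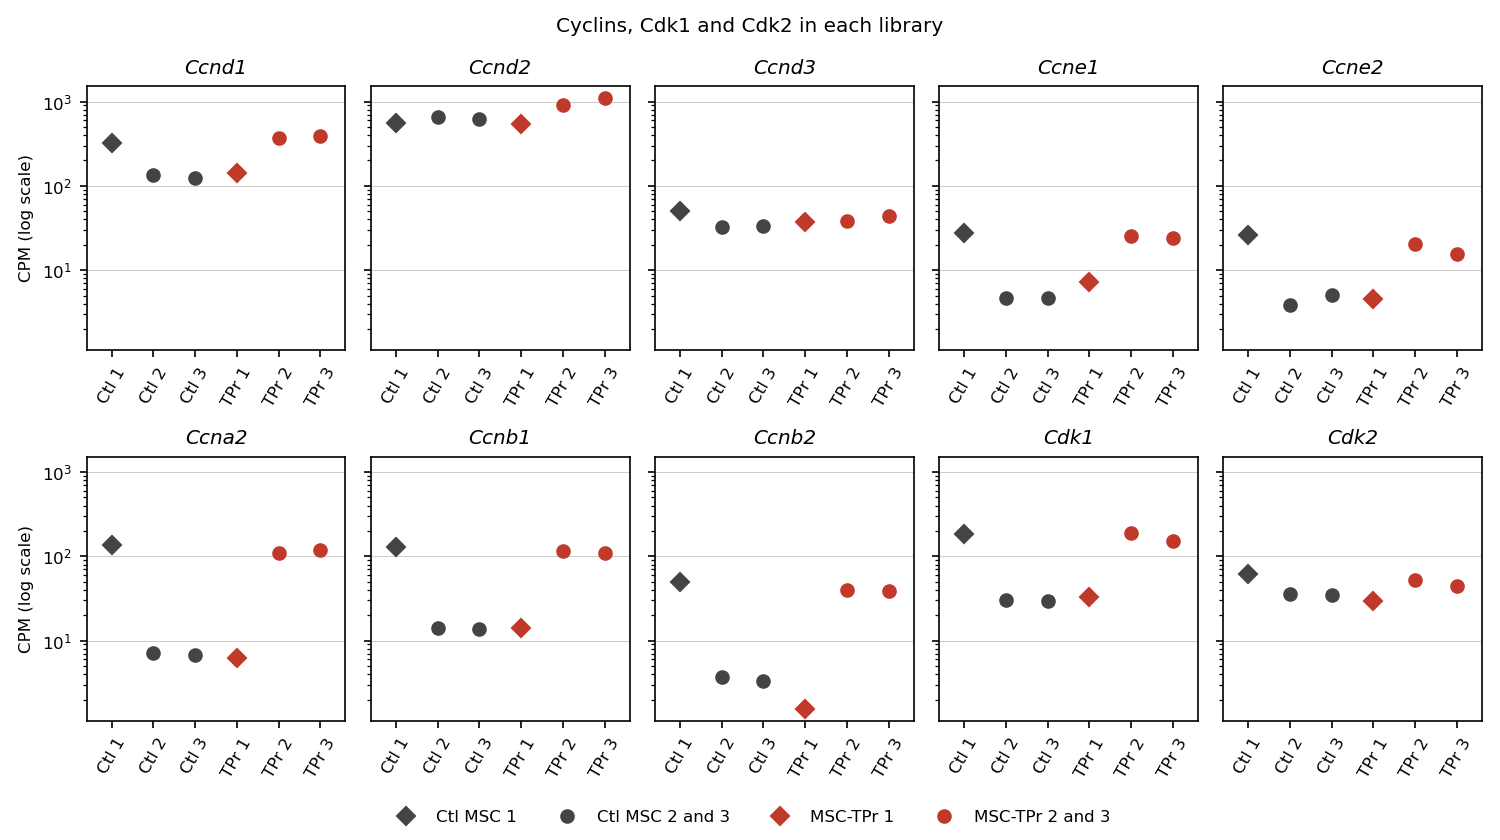
CPM on a log axis for the 10 genes in each of the 6 libraries, 1 point per library, with diamonds for Ctl MSC 1 and MSC-TPr 1. For the E, A and B cyclins and Cdk1, Ctl MSC 1 lies with MSC-TPr 2 and 3, and MSC-TPr 1 with Ctl MSC 2 and 3 (for Ccna2, 135, 110 and 120 CPM against 6.20, 7.05 and 6.73 CPM), while for Ccnd2 Ctl MSC 1 lies with the low libraries and Ccnd3 is nearly level.

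The make-up of the D cyclins also differed between libraries when reads were divided by exon length. Ccnd2 provided 44.4%, 68.2% and 68.4% of the D cyclin signal per exon base across Ctl MSC, against 62.9%, 54.1% and 57.0% across MSC-TPr. Ccnd1 provided 51.3%, 28.2% and 27.6% across Ctl MSC, against 32.5%, 43.5% and 40.6% across MSC-TPr. Cyclin D1 thus held its largest share in the 3 libraries with high Ccna2, and Ccnd3 gave at most 4.64% (7.28% by the length of the longest transcript). In Ctl MSC 1 Ccnd1 was above Ccnd2 on this scale, and by the length of the longest transcript Ccnd2 was ahead there with 47.1% against 46.0%.

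**Figure D2:**
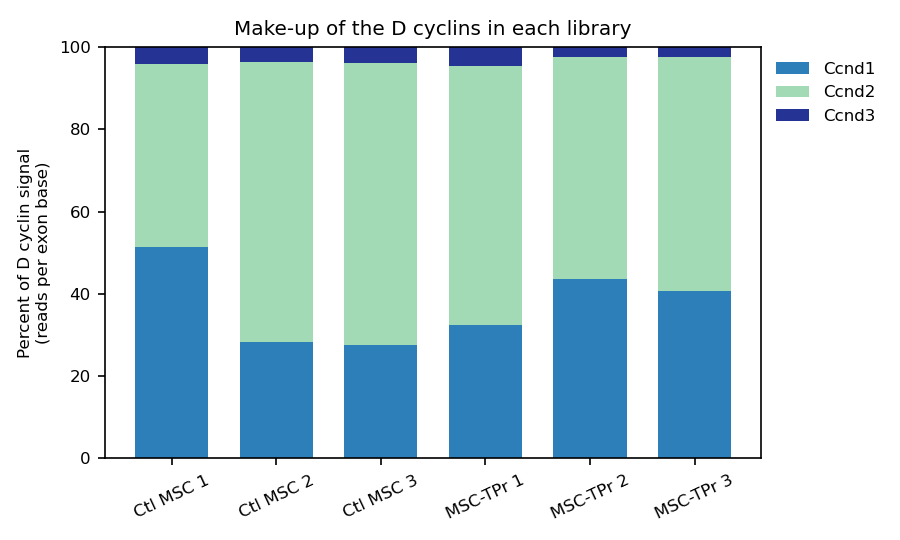
Percent of the D cyclin signal (reads per base of exon, y axis) given by Ccnd1, Ccnd2 and Ccnd3 in each library, as stacked bars that sum to 100%. Ccnd2 ranges from 44.4% in Ctl MSC 1 to 68.4% in Ctl MSC 3, and Ccnd3 is the thin band at the top.

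The E cyclins varied more widely. Ccne1 (chromosome 7, 38097984 to 38107534, minus strand), cyclin E1, had 27.2, 4.70 and 4.63 CPM across Ctl MSC, against 7.31, 25.4 and 24.2 CPM across MSC-TPr. Ccne2 (chromosome 4, 11191351 to 11204779, plus strand), cyclin E2, had 26.3, 3.90 and 5.13 CPM across Ctl MSC, against 4.54, 20.6 and 15.6 CPM across MSC-TPr. For both genes Ctl MSC 1 was the highest library and the groups overlapped. The highest library was 5.88 times the lowest for Ccne1 and 6.74 times for Ccne2. Over all 6 libraries the log2 fold change was 0.64 (SE 0.821, edgeR adjusted p = 0.766) for Ccne1 and 0.21 (SE 0.854, edgeR adjusted p = 0.929) for Ccne2. Without the libraries numbered 1 the same values were 2.41 (SE 0.148, edgeR adjusted p = 0.000208) and 2.0 (SE 0.227, edgeR adjusted p = 0.00147).

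Cdk2 (chromosome 10, 128697939 to 128705031, minus strand) encodes the kinase that the E cyclins activate. It had 62.1, 35.7 and 35.2 CPM across Ctl MSC, against 29.4, 52.8 and 44.8 CPM across MSC-TPr. The same 3 libraries were high as for the E cyclins, with a span of 2.11 times between the highest and the lowest. The log2 fold change was −0.07 (95% interval −0.82 to 0.69, edgeR adjusted p = 0.939) over all 6 libraries. Without the libraries numbered 1 it was 0.46 (SE 0.130, edgeR adjusted p = 0.0315), which passes the adjusted p and not the limit of 0.5 in size. Ccne2 and Cdk2 overlap exons of Ints8 and Pmel on the opposite strand.

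Cyclin A2 and the B cyclins had the widest spans between libraries. Ccna2 (chromosome 3, 36564865 to 36572150, minus strand; exon overlap with Exosc9 on the opposite strand), needed for DNA replication and entry into mitosis, had 135, 7.05 and 6.73 CPM across Ctl MSC, against 6.20, 110 and 120 CPM across MSC-TPr. These were 2241, 132 and 122 reads and 112, 1862 and 2591 reads. Ccnb1 (chromosome 13, 100778650 to 100786570, minus strand), cyclin B1, which carries Cdk1 into the nucleus at mitosis, had 129, 14.1 and 13.7 CPM across Ctl MSC, against 14.1, 116 and 110 CPM across MSC-TPr. Both genes were at about 110 CPM or more in Ctl MSC 1 and MSC-TPr 2 and 3 and at 14.1 CPM or less elsewhere, with no library between.

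Ccnb2 (chromosome 9, 70407692 to 70421547, minus strand), cyclin B2, which is found mainly at the Golgi, had 49.1, 3.69 and 3.31 CPM across Ctl MSC, against 1.55, 39.3 and 38.4 CPM across MSC-TPr. MSC-TPr 1 held the lowest value, at 28 reads, and the span of 31.7 times between libraries was the largest of the 10 genes. Cdk1 (chromosome 10, 69335146 to 69352938, minus strand), the mitotic kinase, had 183, 30.5 and 29.1 CPM across Ctl MSC, against 33.3, 190 and 153 CPM across MSC-TPr. Its span of 6.51 times was narrower than the 21.8 times of Ccna2 and the 9.41 times of Ccnb1. In bulk RNA, fewer dividing cells and less of these RNAs per cell cannot be told apart.

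Over all 6 libraries the log2 fold change was 0.67 (SE 1.42) for Ccna2, 0.61 (SE 1.09) for Ccnb1, 0.50 (SE 1.36) for Ccnb2 and 0.63 (SE 0.904) for Cdk1, and the lowest edgeR adjusted p of these 4 genes was 0.794. The 95% interval of Ccna2, from −2.73 to 4.06, holds large differences in either direction. Without the libraries numbered 1 the log2 fold changes were 4.06 (SE 0.135, edgeR adjusted p = 8.8e-05) for Ccna2, 3.02 (SE 0.121, edgeR adjusted p = 9.5e-05) for Ccnb1, 3.47 (SE 0.148, edgeR adjusted p = 0.000105) for Ccnb2 and 2.52 (SE 0.150, edgeR adjusted p = 0.000187) for Cdk1. These were the largest of the 10 genes in these 4 libraries.

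To show the sequence before 2 mitotic genes that were high and low in the same libraries and before Cdk2, which varied less, the 250 bases upstream of the RefSeq start site (GRCm38.p6) are given 5′ to 3′ on the strand of the gene. Capitals mark 3 kinds of motif searched on both strands. They are the cell cycle homology region (CHR, TTTGAA), the CCAAT box bound by NF-Y, and E2F sites (TTGGCGC, the variant form TTCCCGC, the variant form TTCGCGC and the variant form TTGCCGC), which are known from cell cycle promoters. The windows are chr10:69352913-69353162 for Cdk1, chr9:70421555-70421804 for Ccnb2 and chr10:128705052-128705301 for Cdk2, all on the minus strand, and the last 26 bases of the Cdk1 window lie in an annotated exon.
Cdk1: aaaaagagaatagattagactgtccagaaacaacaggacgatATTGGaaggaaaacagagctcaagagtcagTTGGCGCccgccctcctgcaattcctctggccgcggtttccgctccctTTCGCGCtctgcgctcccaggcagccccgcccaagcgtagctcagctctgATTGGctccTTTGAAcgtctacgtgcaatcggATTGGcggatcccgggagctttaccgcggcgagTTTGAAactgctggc
Ccnb2: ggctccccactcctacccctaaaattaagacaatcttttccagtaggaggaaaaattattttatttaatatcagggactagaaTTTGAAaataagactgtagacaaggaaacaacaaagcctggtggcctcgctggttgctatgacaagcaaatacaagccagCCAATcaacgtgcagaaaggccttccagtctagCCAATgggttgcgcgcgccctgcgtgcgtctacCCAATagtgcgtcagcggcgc
Cdk2: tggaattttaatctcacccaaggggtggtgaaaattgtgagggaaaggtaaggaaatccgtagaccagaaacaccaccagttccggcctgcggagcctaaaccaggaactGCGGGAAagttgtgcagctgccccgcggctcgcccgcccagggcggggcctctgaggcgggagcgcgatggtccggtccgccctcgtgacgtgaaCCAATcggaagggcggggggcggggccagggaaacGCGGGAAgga

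The Cdk1 window held 2 CHR, 3 CCAAT and 2 E2F matches, with the CHR nearest to the gene from −15 to −10. The Ccnb2 window held 1 CHR match, from −167 to −162, and 3 CCAAT matches whose first bases were at −87, −54 and −21, which is an even spacing. The Cdk2 window held no CHR match, 1 CCAAT match and 2 E2F matches. Among the other genes with a window, Ccnb1 held 2 CCAAT matches and 1 E2F match that overlaps a CCAAT match, Ccne1 held none, and of the 2 Ccnd3 windows only the second held a match, 1 CCAAT. Windows were present for 6 of the 10 genes. Of 32817 windows of the same length, 16.0% held a CHR match, 33.8% a CCAAT match, 7.89% an E2F match and 5.54% both CHR and CCAAT. A match is a run of letters and does not show that a factor binds there. The CHR was searched only as TTTGAA, so a window without a match may hold another form.

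The comparison of the labels asked whether the libraries labelled MSC-TPr had a different level of the cell cycle genes. Over all 6 libraries edgeR called 0 of the 10 genes (log2 fold change of 0.5 or more in size at an adjusted p under 0.05), against 0.426% of all genes tested. At an unadjusted p under 0.05 the edgeR count was 0 of 10, against 1801 of the 11974 genes tested. DESeq2 called 0 of the 7 genes for which it gave a p, against 5.28% of all genes (it gave none for Ccna2, Ccnb1 and Ccnb2). The log2 fold change was above 0 for 9 genes, with a median of 0.56 against 0.01 over all genes tested. Groups overlapped for all 10 genes, whereas 22.6% of all genes had groups that did not overlap. Without Ctl MSC 1 and MSC-TPr 1 edgeR called 8 of the 10 genes, all higher in MSC-TPr, against 20.6% of all genes called higher and 40.0% called in either direction. DESeq2 called 8 of the 10 there, against 18.6% of all genes called higher and 35.2% in either direction. The 2 genes not called were Ccnd3 and Cdk2. The median log2 fold change was then 2.21, against −0.0016 over all genes tested. All 10 genes were higher in both remaining MSC-TPr libraries than in both remaining Ctl MSC libraries, which held for 38.3% of all genes. Ctl MSC 1 and MSC-TPr 1 stood apart from their labels and were left out with these values known. The counts without them are therefore a description and not a second test of the labels.

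**Figure D3:**
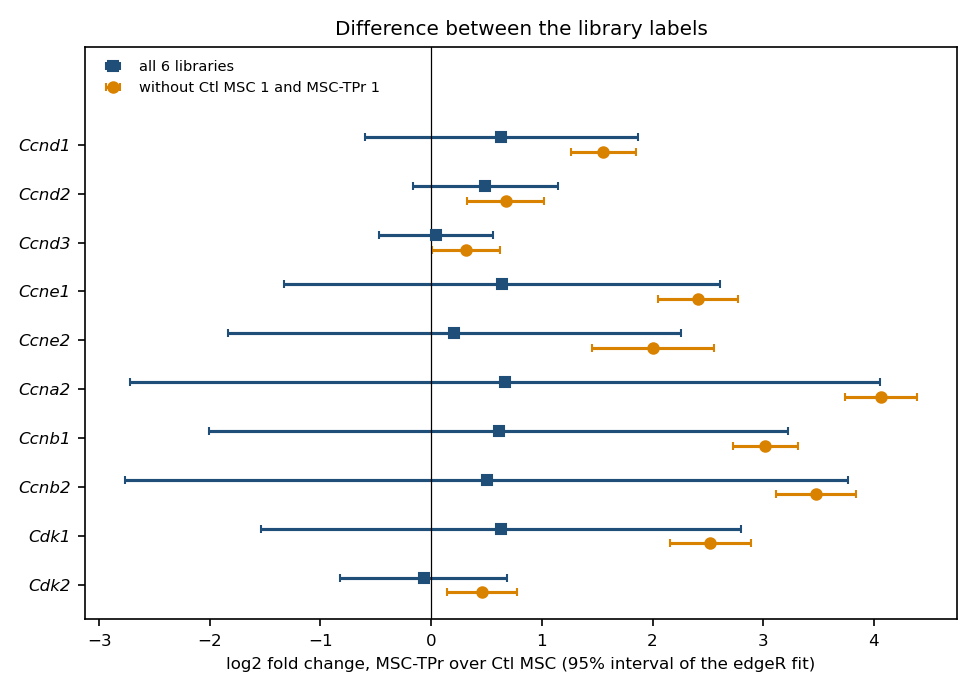
log2 fold change of MSC-TPr over Ctl MSC (x axis) for the 10 genes, with the 95% interval of the edgeR fit, over all 6 libraries (squares) and without Ctl MSC 1 and MSC-TPr 1 (circles). All intervals over 6 libraries cross 0, and those over 4 libraries lie above 0, from 0.32 for Ccnd3 to 4.06 for Ccna2.

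The libraries numbered 1 differed in the opposite direction. The log2 CPM of MSC-TPr 1 minus that of Ctl MSC 1 was −4.99 for Ccnb2, −4.45 for Ccna2, −3.20 for Ccnb1 and −2.46 for Cdk1. It was −2.53 for Ccne2, −1.90 for Ccne1, −1.19 for Ccnd1 and −1.08 for Cdk2. The difference was −0.40 for Ccnd3 and −0.03 for Ccnd2. These are differences between single libraries, with no test. The median over the 10 genes was −2.17, against −0.00095 over all genes tested.

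Summed by role, the D cyclins had 931, 818 and 777 CPM across Ctl MSC, against 727, 1325 and 1538 CPM across MSC-TPr. The E cyclins had 53.5, 8.60 and 9.76 CPM across Ctl MSC, against 11.9, 46.1 and 39.8 CPM across MSC-TPr. The A and B cyclins had 314, 24.8 and 23.8 CPM across Ctl MSC, against 21.8, 265 and 268 CPM across MSC-TPr. Cdk1 and Cdk2 together had 245, 66.2 and 64.4 CPM across Ctl MSC, against 62.7, 242 and 197 CPM across MSC-TPr. MSC-TPr 1 was the lowest library in each sum except that of the E cyclins, where Ctl MSC 2 was, and Ctl MSC 1 was above Ctl MSC 2 and 3 in all 4 sums. Within MSC-TPr the D cyclin sum was highest in MSC-TPr 3, whereas the E cyclin sum was highest in MSC-TPr 2.

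Levels of different genes were compared per kilobase of exon. On this scale Ccnd2 had a median of 67.5 CPM per kb over the 6 libraries (58.2 to 117) and Ccnd1 one of 49.3 (26.6 to 83.5). Cdk1 followed with 18.8 (5.90 to 38.4) and was the third of the 10 genes in every library on this scale. Ccnb1 had a median of 14.7 (3.26 to 30.6), Ccna2 one of 14.4 (1.52 to 33.2) and Ccnb2 one of 13.7 (1.01 to 32.1). These 3 neighbours had similar medians and upper ends and differed more at their lower ends. Cdk2 had 6.47 (4.73 to 9.99), Ccne1 had 5.92 (1.74 to 10.2), Ccnd3 had 4.31 (3.69 to 5.68) and Ccne2 had 2.96 (1.12 to 7.52). Every pair of neighbours in this order had overlapping ranges over the libraries. Within each library, however, Ccnd1 and Ccnd2 were above Cdk1 and Cdk1 was above the other 7 genes on this scale. Cdk2 had rank 4 in Ctl MSC 2 and 3 and MSC-TPr 1 and rank 8 in the other 3 libraries, where Ccna2, Ccnb1, Ccnb2 and Ccne1 were above it. By the longest transcript in place of the union of exons, Ccnb1 came before Cdk1 and Ccnd3 before Ccne1 by their medians.

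Ratios of reads within a library do not depend on library size, and 8 of them were compared between the labels with exact permutation tests (two-sided, smallest possible p = 0.1). The ratio of Ccne1 to Ccne2 was 1.04, 1.21 and 0.903 across Ctl MSC, against 1.61, 1.23 and 1.55 across MSC-TPr. It was the 1 ratio whose groups did not overlap, with a mean log2 difference of 0.48 (exact p = 0.1, the smallest the design allows, and 0.8 after Benjamini-Hochberg adjustment over the 8 ratios). Without the libraries numbered 1 the difference was 0.41, of the same direction. Per exon length, Ccne1 gave 54.3% to 67.9% of the E cyclin signal, and so was the higher of the E cyclins in all 6 libraries.

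The ratios to Cdk2 placed Ctl MSC 1 with MSC-TPr 2 and 3, and most of the other ratios did so too. Ccnd1 to Ccnd2, Ccnd1 to Ccnd3 and Ccnb1 to Cdk1 were higher in each of these libraries than in any of the rest. Ccnb1 to Ccnb2 was lower in each of them, while Ccne1 to Ccne2 and Ccnd2 to Ccnd3 did not split in this way. Ccna2 to Cdk2 was 2.18, 0.197 and 0.191 across Ctl MSC, against 0.211, 2.09 and 2.69 across MSC-TPr. Cdk1 to Cdk2 was 2.95, 0.854 and 0.826 across Ctl MSC, against 1.13, 3.59 and 3.41 across MSC-TPr. Both ratios were at 2.09 or more in Ctl MSC 1 and MSC-TPr 2 and 3, and the mean log2 differences between the labels were 1.28 (exact p = 0.3) and 0.91 (exact p = 0.2), against 3.61 and 2.06 without the libraries numbered 1. Ccnb1 to Ccnb2 was 2.63, 3.83 and 4.15 across Ctl MSC, against 9.07, 2.94 and 2.86 across MSC-TPr, and MSC-TPr 1, with its 28 reads of Ccnb2, stood apart. Its difference of 0.29 (exact p = 0.8) turned to −0.46 without the libraries numbered 1. Ccnb1 to Cdk1 was 0.706, 0.462 and 0.472 across Ctl MSC, against 0.423, 0.610 and 0.719 across MSC-TPr (difference 0.09, exact p = 0.9, and 0.50 without the libraries numbered 1). Among the D cyclins the differences were 0.21 for Ccnd1 to Ccnd2, 0.57 for Ccnd1 to Ccnd3 and 0.36 for Ccnd2 to Ccnd3 (exact p = 0.8, 0.4 and 0.5), and in the same order 0.89, 1.25 and 0.35 without the libraries numbered 1. Adjusted values of the 8 ratios ran from 0.8 to 0.9.

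**Figure D4:**
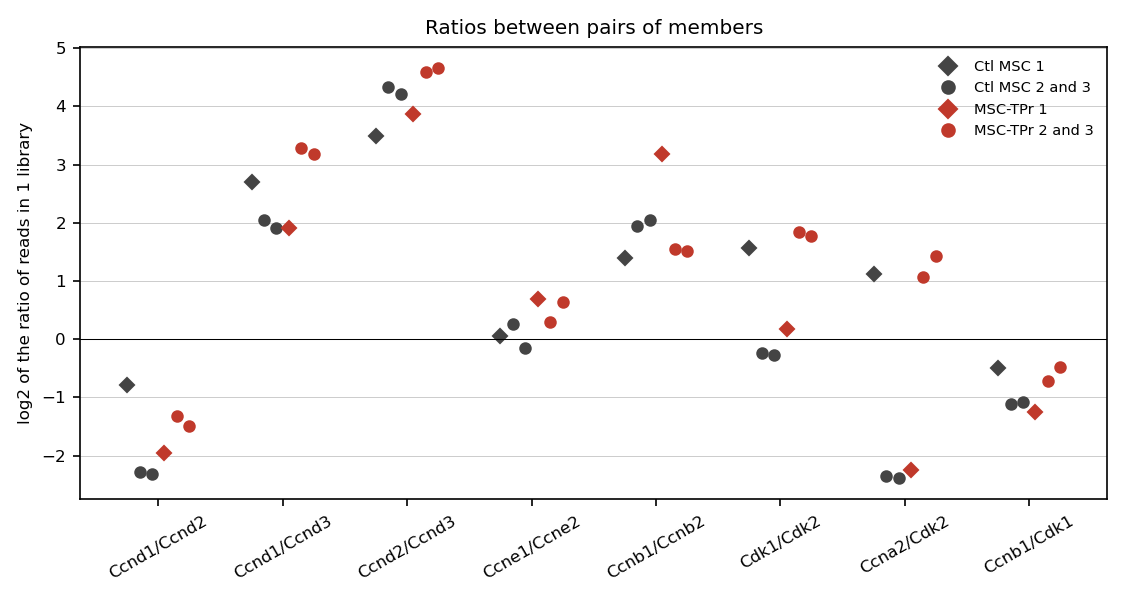
log2 of the ratio of reads (y axis) for 8 pairs of genes, 1 point per library, with diamonds for Ctl MSC 1 and MSC-TPr 1. Ccne1/Ccne2 is the pair whose groups do not overlap (difference 0.48). All pairs but Ccne1/Ccne2 and Ccnd2/Ccnd3 place Ctl MSC 1 with MSC-TPr 2 and 3, with the widest spans for Ccna2/Cdk2 and Cdk1/Cdk2.

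The likeness of patterns was measured as the root mean square difference of log2 CPM over the 6 libraries after each gene was centred on its own mean. It is a description, since the libraries share depth and labels. Genes were not scaled, so it measures the size of the variation as well as its direction. Among the 10 genes the nearest pair was Ccne1 and Cdk1 at 0.221, followed by Ccnd3 and Cdk2 at 0.257 and by Ccne2 and Cdk1 at 0.264. The E cyclins lay 0.292 apart and Ccnb1 lay 0.302 from Cdk1. The farthest pair was Ccnd3 and Ccna2 at 1.92. Ccna2 and Cdk2 lay 1.76 apart although they were high in the same libraries. Ccnd1 lay 0.545 from Ccnd2 and 0.450 from Ccne1, so its pattern over these libraries was nearer to that of cyclin E1 than to that of cyclin D2.

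Over 9254 genes compared, those nearest to Ccnd1 were Blm (0.0958), a DNA helicase, Slc39a13 (0.105), a zinc transporter, and Rbl1 (0.107), the pocket protein p107. Nearest to Ccnd2 were Slc39a14 (0.0828), a transporter of zinc and other metals, Cubn (0.0829), an endocytic receptor, and Map1b (0.0849), a microtubule-associated protein. Slc39a14, for example, had 123, 123 and 129 CPM across Ctl MSC, against 112, 194 and 209 CPM across MSC-TPr. Nearest to Ccne1 were Ect2 (0.104), which activates RhoA in cytokinesis, Nek2 (0.105), a centrosomal kinase, and Asf1b (0.122), a histone chaperone. Nearest to Cdk1 were Cdc20 (0.119), an activator of the anaphase promoting complex, Cdca8 (0.131), a subunit of the chromosomal passenger complex, and Smc2 (0.133), a condensin subunit. Cdc20 had 83.9, 11.4 and 12.1 CPM across Ctl MSC, against 12.6, 70.8 and 67.8 CPM across MSC-TPr.

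The other genes of the pathway were taken from 8 lists of 122 genes, of which 117 were tested. Over all 6 libraries edgeR called 0 of the 117, against 0.426% of all genes tested. DESeq2 called 3, named below, against 5.28% of the genes to which it gave an adjusted p. It gave one to 13 of the 18 proliferation markers, so its count does not cover all 117 genes. An unadjusted edgeR p under 0.05 was found for 12 of the 117, against 1801 of the 11974 genes tested. Without the libraries numbered 1 edgeR called 63 of the 117, against 40.0% of all genes tested. Over all 6 libraries 7 of the 117 were higher and 10 were lower in every MSC-TPr library than in every Ctl MSC library, against 10.6% and 12.1% of all genes. For the proliferation markers (Mki67, Pcna, Top2a, MCM subunits and others), 16 of 18 genes were called higher without the libraries numbered 1 and 0 lower, against 20.6% and 19.4% of all genes. Their median log2 fold change was 3.0 there, 0.61 over all 6 libraries, and −2.60 from Ctl MSC 1 to MSC-TPr 1. Bub1, a mitotic checkpoint kinase, had 56.6, 5.98 and 7.12 CPM across Ctl MSC, against 8.14, 79.6 and 78.0 CPM across MSC-TPr (log2 fold change 1.25, edgeR adjusted p = 0.647 over all 6, and 3.59, adjusted p = 9.5e-05 over the 4 left without the libraries numbered 1). Pcna, the sliding clamp of DNA replication, had a log2 fold change of 0.70 (edgeR adjusted p = 0.503, and 1.47, adjusted p = 0.00235 over the 4).

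**Figure D5:**
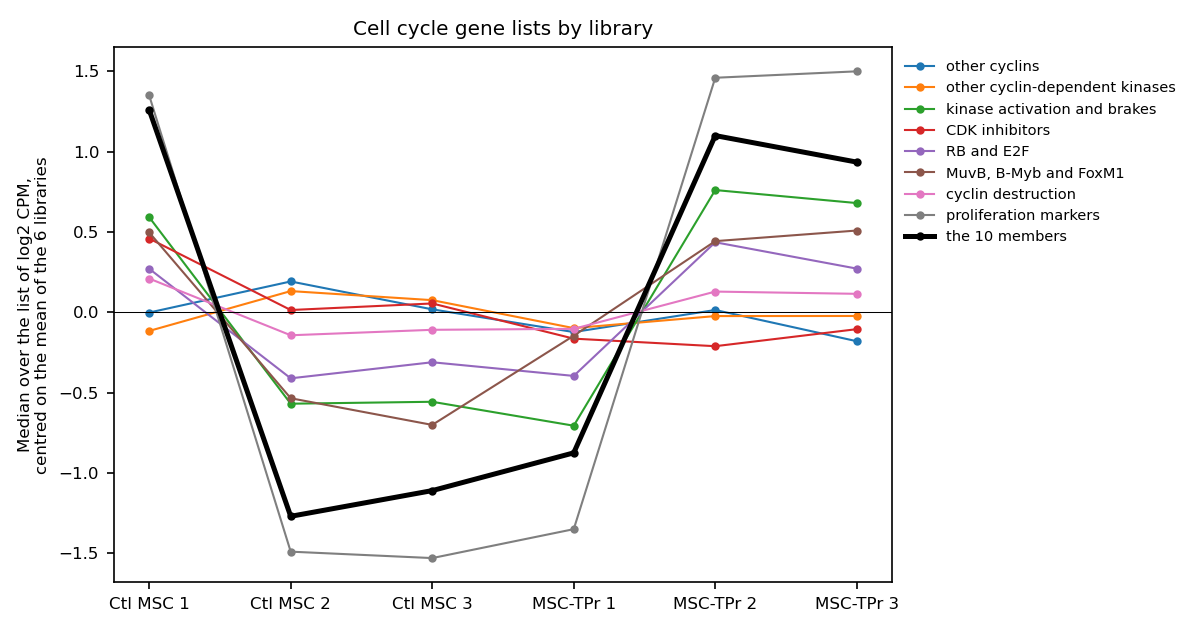
Median over each gene list of log2 CPM centred on the mean of the 6 libraries (y axis), by library (x axis), with the 10 cyclins and kinases as the thick line. Lines join the points of a list only to guide the eye. The 10 genes and the proliferation markers lie high in Ctl MSC 1 (1.26 and 1.35) and in MSC-TPr 2 and 3. The medians of the other cyclins and CDKs stay within 0.2 of 0, although single genes of these lists vary in opposite directions.

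Among the activators and brakes of the kinases (CDC25 phosphatases, Wee1, Cks1b, Plk1, Aurka and others), 9 of 11 genes were called higher without the libraries numbered 1 and 0 lower, against 20.6% and 19.4% of all genes. The median log2 fold change was 1.20 there and 0.42 over all 6. Mnat1, which assembles the CDK-activating kinase, had 27.3, 27.9 and 31.4 CPM across Ctl MSC, against 45.8, 36.9 and 33.5 CPM across MSC-TPr (log2 fold change 0.42, edgeR adjusted p = 0.335, and 0.25, adjusted p = 0.160 over the 4), and it was the 1 gene of this list whose groups did not overlap. Bora, an activator of Aurora A, had a log2 fold change of 1.01 (edgeR adjusted p = 0.503, and 2.12, adjusted p = 0.000614 over the 4) with overlapping groups. Of the 8 MuvB, B-Myb and FoxM1 genes, which regulate mitotic cyclin promoters, 5 were called higher and 1 lower without the libraries numbered 1 (median 1.15, and 0.41 over all 6), against 20.6% and 19.4% of all genes. Rbbp4, a histone-binding protein, had a log2 fold change of −0.39 (edgeR adjusted p = 0.292, and −0.41, adjusted p = 0.0333 over the 4) with every MSC-TPr library below every Ctl MSC library. Lin54, which contacts the CHR, had one of 0.39 (edgeR adjusted p = 0.466, and 0.71, adjusted p = 0.0044 over the 4). Every MSC-TPr library lay below every Ctl MSC library for 12.1% of all genes and above for 10.6%. Mnat1 and Rbbp4 were named for the smallest p of their lists over these same libraries, which favours groups that do not overlap.

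Of 13 RB and E2F genes, 7 were called higher and 2 lower without the libraries numbered 1 (median 0.77, and 0.33 over all 6), against 20.6% and 19.4% of all genes. E2f4, a repressor E2F of quiescent cells, had 71.1, 59.7 and 61.7 CPM across Ctl MSC, against 89.1, 107 and 99.6 CPM across MSC-TPr (log2 fold change 0.62, edgeR adjusted p = 0.157, and 0.77, adjusted p = 0.00329 over the 4). E2f3, an activator E2F, had 63.9, 52.3 and 53.0 CPM across Ctl MSC, against 30.3, 42.6 and 39.4 CPM across MSC-TPr (log2 fold change −0.59, edgeR adjusted p = 0.229, and −0.36, adjusted p = 0.0458 over the 4). Groups did not overlap for either gene, as for 22.6% of all genes. Both were named for the smallest p of their list over these same libraries, which favours groups that do not overlap. Of 7 CDK inhibitors, 1 was called higher and 2 lower without the libraries numbered 1 (median −0.10, and 0.13 over all 6), shares near the 20.6% and 19.4% of all genes. Cdkn2a, which encodes p16INK4a and p19ARF, had 340, 296 and 326 CPM across Ctl MSC, against 203, 218 and 179 CPM across MSC-TPr (log2 fold change −0.68, edgeR adjusted p = 0.133, and −0.64, adjusted p = 0.0141 over the 4). Cdkn1c, which encodes p57, had 0.906, 1.71 and 1.16 CPM across Ctl MSC, against 0.554, 0.118 and 0.371 CPM across MSC-TPr (log2 fold change −1.83, edgeR adjusted p = 0.227, and −2.45, adjusted p = 0.0124 over the 4), and its level in MSC-TPr 2 was under the 3-read limit of 0.177 CPM there.

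Tested as well were 16 other CDKs and 14 other cyclins. Of the CDKs, 1 was called higher and 4 lower without the libraries numbered 1 (median −0.0087, and −0.08 over all 6), against 20.6% and 19.4% of all genes. Cdk4, the main partner of the D cyclins with Cdk6, had 465, 460 and 493 CPM across Ctl MSC, against 381, 374 and 322 CPM across MSC-TPr (log2 fold change −0.40, edgeR adjusted p = 0.283, and −0.45, adjusted p = 0.0346 over the 4). Cdk16, a kinase of the PCTAIRE group, had 176, 240 and 236 CPM across Ctl MSC, against 154, 156 and 175 CPM across MSC-TPr (log2 fold change −0.43, edgeR adjusted p = 0.318, and −0.52, adjusted p = 0.0150 over the 4). Both were lower in every MSC-TPr library than in every Ctl MSC library, as were 12.1% of all genes. Both were named for the smallest p of their list over these same libraries, which favours such groups. Of the other cyclins, 3 were called higher and 5 lower without the libraries numbered 1 (median −0.17, and −0.07 over all 6), against 20.6% and 19.4% of all genes. These medians join opposite changes, from −1.37 for Ccng2 to 3.88 for Ccnf without the libraries numbered 1. Ccnf had 27.4, 1.98 and 2.43 CPM across Ctl MSC, against 3.82, 30.8 and 33.9 CPM across MSC-TPr (log2 fold change 1.11, edgeR adjusted p = 0.714 over all 6). Ccnl2, a cyclin of splicing and transcription, had 73.9, 100 and 75.1 CPM across Ctl MSC, against 49.1, 55.3 and 36.1 CPM across MSC-TPr (log2 fold change −0.83, edgeR adjusted p = 0.183, and −0.94, adjusted p = 0.0219 over the 4). Ccnk, the partner of CDK12, had 35.4, 37.0 and 38.0 CPM across Ctl MSC, against 60.9, 54.7 and 47.1 CPM across MSC-TPr (log2 fold change 0.56, edgeR adjusted p = 0.193, and 0.44, adjusted p = 0.0328 over the 4). DESeq2 called Ccnl2 (adjusted p = 0.0496), Cdkn2a (adjusted p = 0.00683) and E2f4 (adjusted p = 0.0163) over all 6 libraries.

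Of 30 genes of cyclin destruction (the anaphase promoting complex, SCF and related ligases), 7 were called higher and 0 lower without the libraries numbered 1, against 20.6% and 19.4% of all genes. The median log2 fold change was 0.27 there and 0.08 over all 6. Cdc23, a subunit of the anaphase promoting complex whose exons overlap Kif20a on the opposite strand, had a log2 fold change of −0.33 (edgeR adjusted p = 0.310, and −0.28, adjusted p = 0.0889 over the 4). Fbxo31, a subunit of a cyclin D1 ligase, had one of −0.29 (edgeR adjusted p = 0.399, and −0.29, adjusted p = 0.126 over the 4). Both were lower in every MSC-TPr library than in every Ctl MSC library, as were 12.1% of all genes. They too were named for the smallest p of their list, which favours such groups.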

How the data were processed

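The 6 libraries (3 per label) were each treated as 1 replicate, with groups and numbers taken from the sample titles. Polyadenylated RNA was sequenced from both ends of stranded fragments. The authors aligned the reads to mm10, and the deposited values are raw Htseq-count counts per gene symbol with no normalization. The submitters' processing notes name CASAVA 1.8.2, Trimmomatic 0.35 and TopHat2 2.1.0. The annotation and strand setting are not given in the sources used here. Of the reads listed, 79.2% to 86.2% were on genes, and the rows without a gene (no feature 6.86% to 10.9%, ambiguous 0.939% to 1.09%, not unique 5.89% to 8.92%) were left out.

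The test was the quasi-likelihood one of edgeR 4.0.16 in R 4.3.3 (TMM, filterByExpr, only the label as a term, Benjamini-Hochberg adjustment over the 11974 genes tested, or 12122 without the libraries numbered 1). A gene was called where the log2 fold change was 0.5 or more in size at an adjusted p under 0.05. DESeq2 1.42.0 (Wald test) was an alternative, as were RLE and upper quartile scaling, other filters, a replicate block and leaving out libraries. The 10 genes, the lists and the choice of libraries to leave out were made with earlier results of these data known. Genes named were the 10 genes, the 2 of each list with the smallest p, and the 3 nearest in pattern (mean log2 CPM of at least 3) to Ccnd1, Ccnd2, Ccne1 and Cdk1. Ccnf and Ccng2 were named for the largest changes of their list in each direction without the libraries numbered 1. Log2 CPM used an offset of 0.1 CPM. Coordinates and exon lengths came from GENCODE on mm10, promoters from RefSeq. The fits were tested on simulated counts with a smaller spread between libraries than in the fit over all libraries. The permutation test was tested on 2 sets of values set by hand, with known answers.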

Additional observations from a re-analysis of the deposited data

How the results depend on the processing

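Of the 10 genes, edgeR called 0 over all 6 libraries and 0 when each library was left out in turn, and 8 without Ctl MSC 1 and MSC-TPr 1, where DESeq2 also called 8 (18.6% of all genes called higher). RLE or upper quartile scaling, no filter on low counts, at least 10 counts in every library, no limit on the fold change and DESeq2 over all 6 libraries also called 0. The count over all genes was 51 and became 4854 without both libraries (4565 with DESeq2), 683 with DESeq2 over all 6, 31 with at least 10 counts in every library, and 0 to 108 when 1 library was left out. It was 108 without Ctl MSC 1, 1 without MSC-TPr 2, and 0 without Ctl MSC 2, Ctl MSC 3 or MSC-TPr 3; the cause was not tested.

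Same-numbered libraries deviated in opposite directions from the mean of their label (correlations across genes of −0.76, −0.584 and −0.597). Ctl MSC 1 and MSC-TPr 1 stood apart from their labels and weigh on each of these signs. The correlations therefore cannot decide whether the replicate numbers pair the libraries. With a replicate block the fit called 0 genes (776 at an unadjusted p under 0.05) and 0 of the 10, whose adjusted p ran from 0.853 to 0.985.

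The sign changed for Cdk2 without both libraries (0.46 with edgeR and with DESeq2), for Ccnd3 with upper quartile scaling (−0.0042) and for Ccnb1/Ccnb2 without both libraries (−0.46). With 1 library or both left out the log2 value ran from −0.064 to 0.32 for Ccnd3, from −0.22 to 2.0 for Ccne2, from −0.25 to 0.46 for Cdk2, from −0.050 to 0.89 for Ccnd1/Ccnd2, from −0.46 to 0.57 for Ccnb1/Ccnb2 and from −0.078 to 0.50 for Ccnb1/Cdk1. The other 7 genes and 5 ratios kept their direction when 1 library was left out. DESeq2 gave no p over all 6 libraries for Ccna2, Ccnb1 and Ccnb2, which were therefore left out of that fit here. Gene length cancels in the difference of a ratio. Of the 10 genes, Ccnb2 in MSC-TPr 1 had the fewest reads, 28, and Cdkn1c fell under the 3-read limit in MSC-TPr 2.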
